A study of Mus musculus with 4 samples.

Results

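Pparg, the receptors that share its family or pair with it, and 5 lipid genes were followed in mouse germinal vesicle oocytes. The 10 genes were taken by symbol out of the 16861 genes listed in each library, and all 10 were listed. They are the receptor genes Pparg, Ppara, Ppard, Rxra and Rxrb, the lipid droplet genes Plin2 and Plin3, and the fatty acid oxidation genes Cpt1a, Cpt2 and Acadm. The oocytes came from antral follicles of 3-week-old female C57BL/6J mice, were freed of cumulus cells and kept in milrinone, which holds meiotic arrest, while they were sorted by Hoechst staining. In NSN oocytes the chromatin is dispersed, whereas it surrounds the nucleolus in SN oocytes. RNA was measured by Smart-seq2 in 2 NSN and 2 SN libraries of 15 pooled oocytes each, and all 4 libraries are from untreated oocytes without a transgene. No source used here says whether the replicates came from different mice, so the spread between libraries may be technical. An SD is the spread of the gene's own libraries, whereas a standard error comes from the fit across all tested genes.

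The peroxisome proliferator-activated receptors (PPARs) are nuclear receptors that bind fatty acids and their derivatives. They bind DNA as heterodimers with a retinoid X receptor (RXR) and switch on genes of fatty acid uptake, storage and oxidation. PPARγ, the product of Pparg, is best known as the master regulator of fat cells, and in the ovary it is known mainly from granulosa cells. Oocytes keep neutral lipid in droplets coated with perilipins, and mouse oocytes burn fatty acids in mitochondria during maturation. The fatty acids enter the mitochondria through the carnitine shuttle, to which the carnitine palmitoyltransferases belong.

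The sequences in this paragraph show where the Pparg transcript was probed by the RT-PCR of the study and where the promoters hold the core letters that PPAR and RXR recognise. Pparg (ENSMUSG00000000440.14) lies on chr6:115337675-115468268 of GRCm39, on the plus strand. Both primers lie in coding exon 3 of 8 of its canonical transcript, at chr6:115416877-115416897 and chr6:115416976-115416997. Of the 42 annotated Pparg transcripts, 40 hold both primers, with a product of 121 bp, and no transcript of another gene does. The primers therefore do not separate the Pparg transcripts that start at different promoters, and neither do the FPKM, which are 1 value per gene.
Pparg forward primer: ggaagaccactcgcattcctt
Pparg reverse primer: gtaatcagcaaccattgggtca

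The promoter windows are those of RefSeq on GRCm38.p6, 250 bases before to 50 after each annotated start, and their positions on GRCm39 were found by exact match, with 1 match each. The 10 genes had 14 windows. The letters AGGTCA, on either strand, occur in 6 of these 14 windows and in 16.3% of all 32851 windows. They occur at Pparg, Rxra, Plin2, Cpt1a and Acadm and not in the windows of Ppara, Ppard, Rxrb, Plin3 and Cpt2. The direct repeat of these letters with 1 base between the copies (DR1), which is the textbook PPAR and RXR element and contains the shorter letters, occurs in 0 of the 14 windows and in 13 of all windows, or 0.0396%. A match shows only that the letters are there. The stretches below run from the window's 5′ end on the gene's strand, with the core letters in capitals (TGACCT is AGGTCA read on the other strand). They are a choice among the genes with the letters: the abundant Pparg, the scarce Rxra and Cpt1a, and Plin2 are shown, and Acadm is not. The Pparg stretches are at chr6:115338065-115338094 and chr6:115339289-115339318, with the core letters starting 28 and 9 bases before the annotated starts. The Rxra stretches are at chr2:27599205-27599234 and chr2:27599244-27599273, starting 87 and 48 bases before. The Plin2 stretch is at chr4:86588497-86588526, on the minus strand and starting 218 bases before, and the Cpt1a stretch is at chr19:3373195-3373224, starting 94 bases before.
Pparg, first window: agccgccgcctcAGGTCAgagtcgccccgg
Pparg, second window: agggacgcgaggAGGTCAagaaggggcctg
Rxra, distal letters: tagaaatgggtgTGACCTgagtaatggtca
Rxra, proximal letters: gggtggcaggaaAGGTCAgtcactctctgt
Plin2: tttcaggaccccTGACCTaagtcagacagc
Cpt1a: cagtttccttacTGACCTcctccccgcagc

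Libraries held 17069772 to 17998361 counted read pairs, recovered from the deposited values. A count of 3 read pairs on 1 kb of exon corresponds to an FPKM of 0.167 to 0.176. This limit and the intervals below reflect counting error only, because PCR copies are not separate molecules. FPKM are read pairs divided by gene length and by the library total, so a comparison of levels between genes depends on the length used. That length, recovered from the FPKM, was 2378 bases for Pparg and 5359 for Rxra. All exonic bases of the GENCODE vM39 annotation are 6969 and 6871 for these genes. FPKM are also shares of a library: fewer cells of a type and less RNA per cell cannot be told apart. All 14 oocyte marker genes were listed. Their summed FPKM was 28711 to 30712 in the NSN and 19473 to 20800 in the SN libraries, with 10 of the 14 called lower in SN, and the median log2 difference over the 11672 tested genes was 0.14 in favour of SN. The 10 genes were selected on their FPKM in these same libraries, with the difference between SN and NSN oocytes known, so their differences are described without a test.

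Pparg was the most abundant receptor gene and the only one of the 5 whose mean FPKM reached 0.5. Its FPKM was 24.2 in NSN replicate 1, 31.0 in NSN replicate 2, 53.5 in SN replicate 1 and 57.9 in SN replicate 2. Both SN libraries lay above both NSN libraries. The NSN mean was 27.6 ± 4.85 and the SN mean 55.7 ± 3.14 (SD, n = 2), a ratio of 2.02, and the log2 fold change of FPKM + 0.5 was 1.01 (standard error 0.13). The values rest on 1000, 1321, 2170 and 2478 read pairs in the same order. Its mean level was above that of 91.3% of the listed genes. With each library left out in turn the log2 fold change ranged from 0.83 to 1.19, and it was 0.86 when the libraries were scaled to the same median gene.

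The other PPAR genes were scarce. Ppara (chr15:85618656-85687067), the receptor that drives fatty acid oxidation in the liver, had an FPKM of 0.357 and 0.331 in the NSN libraries and of 0.613 and 0.550 in the SN libraries, or 22, 21, 37 and 35 read pairs. The SN libraries were both higher, at a ratio of 1.69 on the FPKM scale. However, 27.4% of the exonic bases of Ppara also belong to other genes, here Cdpf1, which had an FPKM of 51.3 to 66.7. Read pairs were counted without strand, so those on the shared bases cannot be given to either gene. Ppard (chr17:28451674-28520448), the most widely expressed PPAR gene in other tissues, had an FPKM of 0.105 and 0.136 in NSN and of 0.107 and 0.271 in SN libraries. These rest on 6, 8, 6 and 16 read pairs, and the groups overlapped. In each library Pparg accounted for 98.1% to 98.7% of the summed FPKM of the 3 PPAR genes. A share so near its upper limit can hardly move, so it does not show whether the 3 genes differed together. Ppara held 0.936% to 1.45% and Ppard 0.198% to 0.462%.

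The RXR genes, which encode the partners that PPARs need to bind DNA, were also scarce. Rxra (chr2:27566452-27653330) had an FPKM of 0.225 and 0.271 in NSN and of 0.503 and 0.342 in SN libraries, or 21, 26, 46 and 33 read pairs. Both SN libraries were above both NSN libraries, at a ratio of 1.70. Rxrb (chr17:34250759-34257376) went the other way, with an FPKM of 0.318 and 0.155 in NSN and of 0.122 and 0.0769 in SN libraries. It had only 8, 4, 3 and 2 read pairs, taken as the smallest whole numbers that the FPKM allow. Relative to the library totals, its read pairs were 2.38 times as many in NSN as in SN oocytes, with an exact 95% counting interval of 0.781 to 8.63. Rxrg was not listed and was not analysed here.

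Set side by side per length, the transcript of Pparg outnumbered those of its RXR partners in every library. The ratio of the FPKM of Pparg to the summed FPKM of Rxra and Rxrb was 44.5 and 72.9 in NSN and 85.6 and 138 in SN libraries. The ratio depends on the gene length that is used. With all exonic bases of the GENCODE vM39 annotation as the length it was 29.2, 40.2, 42.1 and 67.5 in the same order. Of the summed FPKM of Rxra and Rxrb, Rxra held 41.4% and 63.7% in NSN and 80.5% and 81.6% in SN libraries, on the few read pairs given above. The genes of 8 other partners of RXR were listed, of which Nr1h2, which encodes the sterol sensor LXRβ, was the most abundant. Its FPKM of 17.4 and 16.0 in NSN and of 16.6 and 20.3 in SN libraries overlapped (log2 fold change 0.13, standard error 0.12, limma adjusted p = 0.49).

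**Figure D1:**
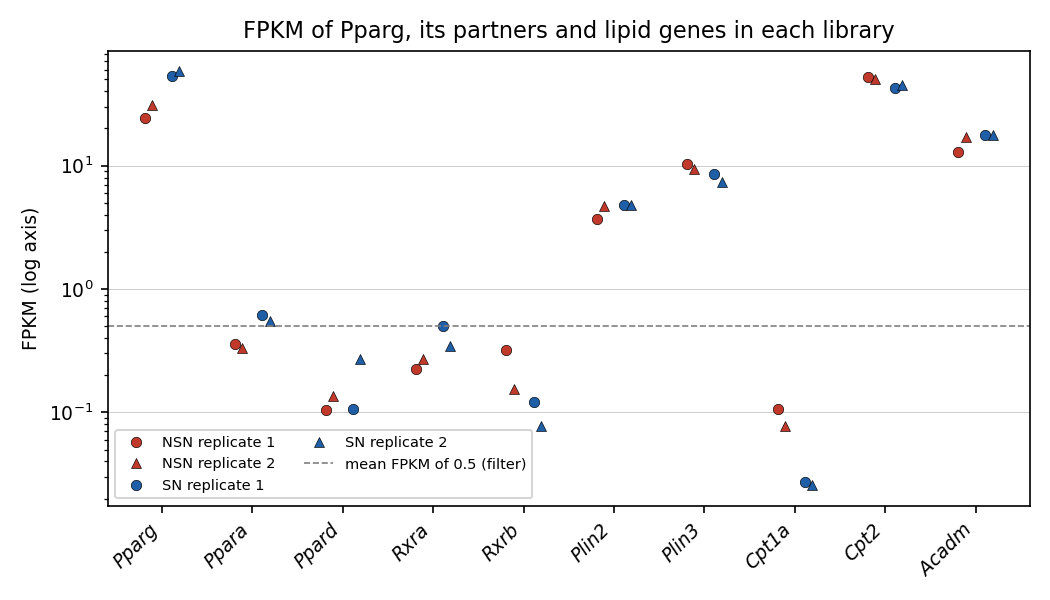
FPKM of the 10 genes in each library on a log axis, with NSN libraries in red and SN libraries in blue, circles for replicate 1 and triangles for replicate 2. Pparg, Cpt2, Acadm, Plin3 and Plin2 sit above the dashed line at a mean FPKM of 0.5, while Ppara, Ppard, Rxra, Rxrb and Cpt1a have means below it.

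The perilipin genes were moderately abundant and differed little. Plin2 (chr4:86565912-86588459), whose product coats lipid droplets in most cells and which is a known PPAR target, had an FPKM of 3.71 and 4.70 in NSN and of 4.78 and 4.80 in SN libraries. NSN replicate 1 was the low library, and NSN replicate 2 was close to the SN libraries. The log2 fold change was 0.18 (standard error 0.15), and it was 0.02 without NSN replicate 1, 0.33 without NSN replicate 2 and 0.04 after median scaling. Plin3 (chr17:56584218-56599873), a perilipin that moves from the cytosol onto nascent droplets, had an FPKM of 10.2 and 9.44 in NSN and of 8.50 and 7.38 in SN libraries. The SN values were both under the NSN values, with a log2 fold change of -0.29 (standard error 0.12). As a result, the ratio of Plin3 to Plin2 on the FPKM scale was 2.76 and 2.01 in NSN and 1.78 and 1.54 in SN libraries, so Plin3 was the higher of the pair throughout. Plin1, Plin4 and Plin5, the perilipins of fat cells and of oxidative tissues, were not listed and were not analysed here.

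Among the genes of fatty acid oxidation, the carnitine palmitoyltransferases of the outer and the inner mitochondrial membrane stood far apart. Cpt2 (chr4:107751473-107780812), which releases the fatty acid from carnitine inside the mitochondrion, had an FPKM of 51.8 and 50.4 in NSN and of 42.3 and 44.6 in SN libraries, on at least 1711 read pairs each. Both SN libraries were below both NSN libraries, with means of 51.1 ± 0.977 and 43.4 ± 1.62 (SD, n = 2) and a log2 fold change of -0.23 (standard error 0.08), which was -0.39 after median scaling. Cpt1a (chr19:3371853-3437996), which encodes the liver form of the outer membrane enzyme and the usual control point of the pathway, had an FPKM of 0.106 and 0.0776 in NSN and of 0.0271 and 0.0257 in SN libraries. It had 8 and 6 against 2 and 2 read pairs. Relative to the library totals these were 3.47 times as many in NSN as in SN oocytes, with an exact 95% counting interval of 1.09 to 14.5. That interval leaves out the variation between libraries and is no test of a gene selected on these values. The FPKM of Cpt2 was 486 and 649 times that of Cpt1a in NSN and 1557 and 1731 times in SN libraries, ratios that rest on these few read pairs. The related gene Cpt1c, known from brain, had an FPKM of 0.452 and 0.460 in NSN and of 0.650 and 0.398 in SN libraries. Cpt1b, the muscle form of the outer membrane enzyme, was not listed. Acadm (chr3:153627989-153650317), the medium-chain acyl-CoA dehydrogenase of the first oxidation step and a classic PPARα target, had an FPKM of 13.0 and 17.1 in NSN and of 17.8 and 17.6 in SN libraries. Here too NSN replicate 1 was the low library and NSN replicate 2 was close to the SN libraries. The log2 fold change was 0.24 (standard error 0.14) and was 0.05 without NSN replicate 1, 0.43 without NSN replicate 2 and 0.09 after median scaling.

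**Figure D2:**
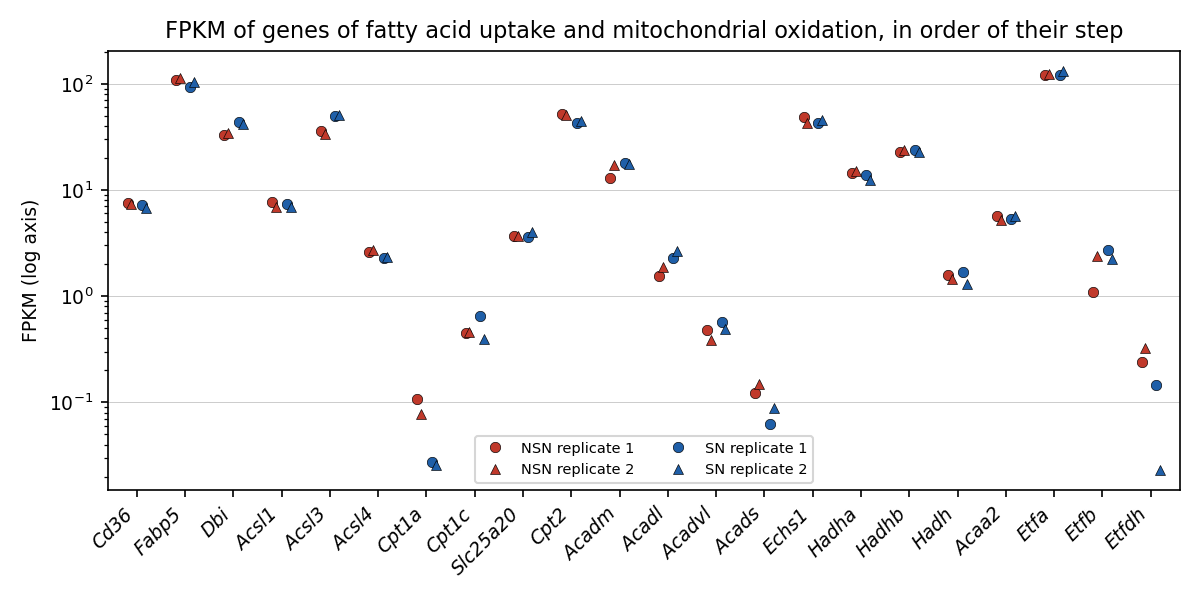
FPKM per library, on a log axis, of genes of fatty acid uptake and mitochondrial oxidation, ordered from uptake (Cd36) through activation (Acsl genes), the carnitine shuttle (Cpt1a to Cpt2, with the related Cpt1c drawn beside Cpt1a) and the oxidation steps to electron transfer (Etfa to Etfdh). Red is NSN, blue is SN, circles and triangles are replicates 1 and 2. Cpt1a and Cpt1c lie below 1 while Cpt2 lies above 40, and most genes have NSN and SN points at nearly the same height.

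The order of the mean levels was Cpt2, Pparg, Acadm, Plin3, Plin2, Ppara, Rxra, Rxrb, Ppard and Cpt1a. On the FPKM scale Cpt2 exceeded Pparg in the NSN libraries, and in the SN libraries the order of these neighbours was reversed. From Pparg down to Rxra each gene exceeded the next in all 4 libraries. These orders depend on the length used. It was 2378 bases for Pparg and 2372 for Cpt2, against 6969 and 3455 exonic bases in GENCODE vM39. With exonic bases as the length Pparg would fall relative to Cpt2, and Ppara relative to Rxra. The reversal and the order of Ppara and Rxra are therefore not secured. Rxra and Rxrb, Rxrb and Ppard, and Ppard and Cpt1a each kept their order in 3 of 4 libraries, so these scarce neighbours are not separated. Only 5 of the 10 genes, Pparg, Plin2, Plin3, Cpt2 and Acadm, passed the filter on low values, a mean FPKM of 0.5. In the fit across all genes a gene was called at an adjusted p below 0.05 and a fold change of 1.2, and of the 5 genes Pparg alone met these numbers, which is given as a count and not as a test of a gene selected on these values. It no longer met them without NSN replicate 1 or without SN replicate 2. In the background of all 11672 tested genes, 7.93% passed. By their values alone, 3 of the 5 had both SN libraries above and 2 had both below the NSN libraries. Across all tested genes the shares were 44.8% and 17.8%, together 62.6%. Nothing is read from these counts, because the genes were chosen with this comparison known.

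The genes whose 4 values were most like those of Pparg were found among the 5518 genes whose mean FPKM reached 5. Likeness was the root mean square difference of the log2 values, each gene centred on its own mean, over the 4 libraries. The nearest were Bmpr2, which encodes a type II receptor of bone morphogenetic proteins, at a difference of 0.0368, Gm5581 at 0.0546 and Gm31502 at 0.0594. Bmpr2 had an FPKM of 4.84 and 6.36 in NSN and of 11.3 and 11.5 in SN libraries, an order that its selection for likeness fixes. In all, 29 genes lay within 0.1 of Pparg.

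The wider pathway was read from 7 gene lists written down from textbook knowledge, 165 genes besides the 10, of which 121 were listed and 93 passed the filter. With limma, 2 of the 93 were higher and 1 was lower in SN oocytes at both thresholds, beside 5.95% higher and 1.98% lower of all tested genes. These background shares are 695 higher and 231 lower genes, which became 78 higher and 179 lower after median scaling. The median log2 fold change of the 93 was 0.05, against 0.14 over all tested genes. The 3 genes were Acsl3, Acbd3 and Bscl2. Acsl3, an acyl-CoA synthetase that activates long-chain fatty acids and feeds nascent lipid droplets, rose from 35.9 and 33.9 to 49.4 and 50.6 FPKM (log2 fold change 0.51, standard error 0.08, limma adjusted p = 0.036). Acbd3, a Golgi protein with an acyl-CoA binding domain rather than an oxidation enzyme, rose from 18.4 and 21.0 to 30.3 and 28.3 FPKM (log2 fold change 0.56, standard error 0.10, limma adjusted p = 0.039). Bscl2, which encodes the droplet assembly protein seipin, fell from 169 and 159 to 117 and 114 FPKM (log2 fold change -0.50, standard error 0.08, limma adjusted p = 0.036). All 3 calls were lost when NSN replicate 1, SN replicate 1 or SN replicate 2 was left out, and after median scaling the adjusted p was 0.073 for Acsl3, 0.064 for Acbd3 and 0.045 for Bscl2. Other genes share 19.3% of the exonic bases of Acsl3 and 19.8% of those of Bscl2.

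The textbook targets of PPARs showed no call. Of 33 such genes 13 were listed and 9 tested, and 0 passed both thresholds with limma, at a median log2 fold change of -0.03. Over all tested genes 7.93% passed, a share that 9 genes cannot tell from 0 calls. An unadjusted limma p under 0.05 was found for 2 of the 9 (22.2%), beside 31.7% of all tested genes. The most abundant was Fabp5, a fatty acid chaperone, with an FPKM of 109 and 114 in NSN and of 92.4 and 104 in SN libraries (limma adjusted p = 0.21). Picked after their values were seen, the fatty acid transporter gene Cd36 had 7.55 and 7.33 against 7.16 and 6.80 FPKM, and Lpl, whose product frees fatty acids from lipoproteins, had 21.7 and 21.5 against 23.0 and 27.7 FPKM. Cyp4a14 and Cyp4a10, also picked after their values were seen, had the highest log2 fold changes of FPKM + 0.5 in this list. Cyp4a14, a fatty acid omega-hydroxylase from a cluster of similar paralogs whose reads may not be fully separable, had 6.88 and 8.39 FPKM in NSN and 10.5 and 13.1 in SN libraries (log2 fold change 0.59, standard error 0.15, limma adjusted p = 0.061). Cyp4a10, of the same cluster, had 0.2996 and 0.662 against 0.806 and 1.11 FPKM (log2 fold change 0.59, standard error 0.24, limma adjusted p = 0.15), where the added 0.5 understates an FPKM ratio of 1.99 against 1.54 for Cyp4a14. Among the targets that were not listed and so not analysed here are Fabp4, Adipoq, Angptl4, Pdk4 and Cidec, which mark PPAR activity in fat and muscle.

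The call counts of the lists below stand beside 7.93% of all tested genes called, and lists this short cannot tell 0 calls from that share. Of the coregulators of PPARs 14 were tested and 0 were called, at a median log2 fold change of 0.12. The most abundant, the coactivator Ncoa3, had an FPKM of 13.2 and 11.7 in NSN and of 13.1 and 15.7 in SN libraries. The coactivator Ppargc1a, known from mitochondrial biogenesis, had only 9 and 14 read pairs in NSN and 3 and 7 in SN libraries. In lipid droplet storage and lipolysis, 1 of 17 tested genes was called, Bscl2, at a median of -0.04. Of the list written for mitochondrial oxidation 21 were tested, at a median of 0.01. Its 2 calls, Acsl3 and Acbd3, are the genes described above, of which neither encodes an enzyme of the oxidation steps. Etfa, a subunit of the electron transfer flavoprotein that takes electrons from Acadm, had an FPKM of 120 and 125 in NSN and of 120 and 133 in SN libraries. Peroxisomal oxidation had 0 of 13 called at a median of -0.19, led in level by Scp2, a sterol carrier, with 12.5 and 12.8 against 11.8 and 12.1 FPKM. Fatty acid and sterol synthesis had 0 of 19 called at a median of 0.09, led by Fdft1, the squalene synthase gene, with 284 and 294 against 251 and 236 FPKM (limma adjusted p = 0.081), of whose exonic bases 24.8% belong to other genes as well.

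**Figure D3:**
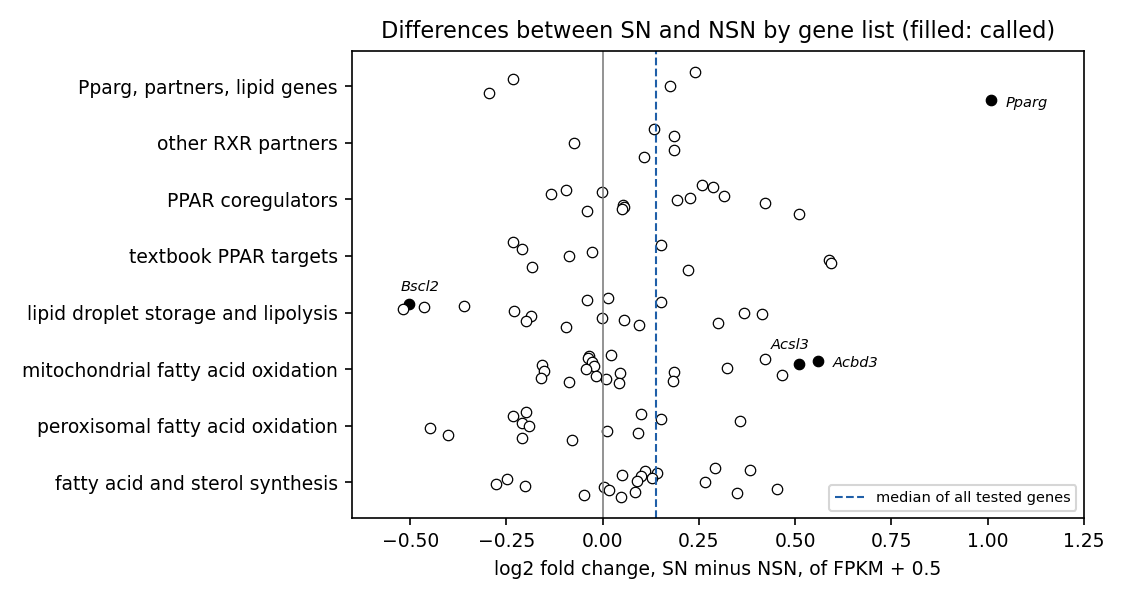
Log2 fold change of FPKM + 0.5, SN minus NSN, of each tested gene by list, with filled points for genes past both thresholds and a dashed line at the median of all tested genes, 0.14. Pparg, which was selected with this difference known, stands at 1.01, and the other genes drawn lie between -0.52 and 0.59.

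Because Pparg is also known from granulosa cells, fat cells and macrophages, markers of other cell types were read beside it. Of 21 granulosa and cumulus cell markers 14 were listed, with a summed FPKM of 364 and 334 in NSN and of 330 and 372 in SN libraries. Serpine2 alone made up 352, 318, 310 and 353 of these. The other 13 summed to 11.9 and 16.6 in NSN and to 19.9 and 18.8 in SN libraries, so without Serpine2 both SN libraries were higher, as for Pparg. Of the 14 markers 6 had both SN libraries above and 0 had both below the NSN libraries, beside 44.8% and 17.8% of all tested genes. Those shares leave out genes under the filter on low values, whereas the 14 include such genes. Has2, Ptgs2 and Cyp11a1, which count among the 6, did not pass it and had at most 11 read pairs in a library. Among these 6, and named after their values were seen, were Cyp19a1, the aromatase gene, with 5.81 and 8.06 against 8.38 and 8.22 FPKM (limma adjusted p = 0.31), and the nuclear receptor gene Nr5a2, with 1.15 and 1.47 against 1.94 and 1.78 FPKM (limma adjusted p = 0.17). The defining markers Amh, Amhr2, Foxl2 and Fst were not listed, and Fshr had an FPKM of 0.414 and 0.166 in NSN and of 0.869 and 0.353 in SN libraries. Of the 6 markers tested, Bex4 was higher in SN oocytes with limma, at 1.92 and 2.33 against 5.32 and 4.38 FPKM (log2 fold change 1.02, limma adjusted p = 0.036), and none was lower. Over all tested genes 5.95% were called higher and 1.98% lower. Of 7 fat cell markers 0 were listed. Of 9 macrophage markers 3 were listed (Cd68, Csf1r and C1qb), with a summed FPKM of 37.9 and 44.1 in NSN and of 38.9 and 30.5 in SN libraries. C1qb alone made up 37.2, 43.4, 38.1 and 29.4 of these. Both SN libraries were higher for Cd68, at 0.594 and 0.622 against 0.652 and 0.972 FPKM. The same held for Csf1r, at 0.0706 and 0.0800 against 0.192 and 0.125 FPKM on 6, 7, 16 and 11 read pairs. Of 9 endothelial and red cell markers 4 were listed, with a summed FPKM of 5.60 to 6.21 over the 4 libraries. Their part in the level of Pparg was not tested.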

How the data were processed

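Per the labels and the methods of the study, reads of 4 Smart-seq2 libraries were trimmed with Trim Galore 0.6.10, mapped to GRCm39 with HISAT2 and counted as read pairs per gene on exons with featureCounts, without strand. The authors deposited FPKM, computed by their own script. The authors ran DESeq2 on their counts, which were not used here. Library totals were solved from 5 mitochondrial tRNA genes, whose lengths are annotated, and turned the FPKM back into read pairs. Of the genes, 99.9% then gave whole read pairs in all 4 libraries, within 0.0001 of a whole number. A count that shares a factor across the libraries could be a multiple of the value given.

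SN was compared with NSN by limma 3.58.1 (R 4.3.3) on log2(FPKM + 0.5) over the 11672 genes whose mean FPKM reached 0.5, with a variance trend and Benjamini-Hochberg adjustment over all of them. This scale understates the change of low genes. The standard errors are the moderated ones of this fit, in which the variance of each gene is drawn towards the variance trend. They can therefore be smaller or larger than the spread of the gene's own libraries gives. A gene was called at a fold change of 1.2 or more with an adjusted p below 0.05. All p-values are two-sided. With 2 libraries against 2, an exact permutation test cannot go below 0.333. The procedure was tested on simulated data. Members and lists were chosen with earlier results of these data known. Besides the 10 genes, the text names the most abundant gene and up to 4 called genes of each list and the 3 genes most like Pparg. Genes named for another reason are given as such or are absent ones. Positions and exonic bases came from GENCODE vM39, a later release than the vM34 of the authors on the same build. Python 3.11.15, numpy 2.4.6, pandas 2.3.3, scipy 1.17.1 and matplotlib 3.10.9 were used for other values. The alternatives are given at the end.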

Additional observations from a re-analysis of the deposited data

How the results depend on the processing

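The 5 tested genes of the 10 kept the direction of their log2 fold change under every alternative that could be run for them, including each library left out (Plin2 is below a mean FPKM of 5). Median scaling moved Plin3 from -0.29 to -0.44 and Cpt2 from -0.23 to -0.39, and totals without the 100 most abundant genes moved Cpt2 to -0.32. The number of the 10 genes past both thresholds, a count and no test since they were selected on these values, 1 in the settings used, was 0 without the filter on low values or without the variance trend, and 0 to 1 with a library left out (0 without NSN replicate 1 and without SN replicate 2). The number of pathway genes past them, 3, was 0 without the filter on low values or without the variance trend, 1 after median scaling or when totals left out the 100 most abundant genes, 8 when the mean FPKM had to reach 5, 12 with voom on the recovered read pairs and 12 at an adjusted p under 0.1, and 0 to 6 with a library left out. Only the fit without NSN replicate 2 had any, and 20 of the 93 pathway genes (21.5%) had an unadjusted limma p under 0.05 in the settings used, beside 3695 of all 11672 (31.7%). Over all genes 926 passed (695 higher, 231 lower). The number was 0 without the filter (4092 at an unadjusted limma p under 0.05) and without the variance trend (3449), 1496 when the mean FPKM had to reach 5, 248 with totals without the 100 most abundant genes (105 higher), 257 after median scaling (78 higher), 2297 with voom, 2370 at an adjusted p under 0.1, and 0 to 1685 with each library left out, where the lone library of a group is assumed to vary like the others. With the replicate number as a block there were 422 calls over all genes and 2 in the pathway lists, where Acbd3 was lost. Differences between replicates 1 and 2 correlated at -0.07 between NSN and SN over the tested genes. This value cannot settle whether libraries of the same replicate number were collected together. Median scaling moved the median of all genes from 0.14 to 0.005. Nr1h2 changed sign to -0.017 after median scaling and to -0.0063 without SN replicate 2 (range -0.0063 to 0.2731 with each library left out), and Etfa to -0.108 after median scaling, -0.0431 when totals left out the 100 most abundant genes and -0.0244 without SN replicate 2 (range -0.0244 to 0.1165). Neither was called. With annotated exonic lengths, chosen after the data were seen, the mean ratio of Pparg to Rxra and Rxrb was 44.8 instead of 85.3. The causes were not tested. Depth limits Ppard, Rxrb and Cpt1a, with at most 16 read pairs in a library. The counting interval of the NSN to SN ratio included 1 for Rxrb and for Ppard (0.299 to 1.29). It lay above 1 for Cpt1a, but these intervals cover counting error only and are no tests.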
